A study of Homo sapiens with 9 samples.

Results

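The control arm of a study of STXBP6 knockdown in SKOV3 cells was described on its own: 3 of the 9 deposited libraries, chosen by their shNC label. SKOV3 is an established human ovarian cancer line. The cells of all 3 control libraries carry the genotype NC and went through lentiviral transduction, as the cells of both knockdown arms did, so they are transduced controls and not untreated cells. Messenger RNA was taken from total RNA with oligo(dT) beads, made into libraries that mark strand with dUTP, and sequenced in pairs. The labels do not say that the replicates came from separate cultures, so the spread given below may be technical. No knockdown library enters any value.

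As background, SKOV3 is widely used as a model of ovarian cancer with amplified ERBB2, the gene of the HER2 receptor tyrosine kinase. HER2 binds no known ligand by itself and signals after pairing with the other members of the ERBB family. Müllerian epithelium, the tissue that lines the oviduct and uterus, is marked by the transcription factor PAX8, and tumours that arise from it often keep that factor while they shift between epithelial and mesenchymal programmes. A poly(A) library of any growing cell line is led by transcripts of mitochondrial, translational, cytoskeletal and glycolytic genes.

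Depth was even. The 3 control libraries held 66180304, 66298780 and 57654447 counts over the 36785 genes of the table, and 96.7% to 96.8% of these fell on genes with a protein-coding transcript. A count of 0 in all 3 libraries allows up to 3 counts over them, or 0.0158 CPM (counts scaled to a library total of 1000000), a limit that covers counting error only because PCR copies are not independent molecules. Replicate 3 stood apart from the other two. Its chi-square per degree of freedom over genes was 17 against replicate 1 and 18.9 against replicate 2, where replicates 1 and 2 gave 9.61, and all 3 values exceed sampling noise. RNA of the 7SL family, the scaffold of the signal recognition particle, summed to 216, 77.3 and 10.5 CPM in replicates 1, 2 and 3, and 5.8S ribosomal RNA to 19.8, 18.5 and 3.49 CPM. Values of both RNAs were lowest in replicate 3.

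Several cardiac muscle transcripts were found only or mainly in replicate 3. MYH7, the slow and cardiac myosin heavy chain, had 0, 0 and 1803 counts in replicates 1, 2 and 3, or 4.72 FPKM in replicate 3. Cardiac actin (ACTC1) had 0, 0 and 422 counts, cardiac troponin T (TNNT2) 3, 8 and 226, and the Z-disc protein ACTN2 0, 0 and 170. The 10 skeletal and cardiac muscle genes in the table summed to 0.380, 0.370 and 8.95 FPKM, and MYH7 was the only one with a mean of at least 1 FPKM. Without replicate 3 none of them reached it. TTN and TNNI3 were present in all 3 libraries, with 1493, 1607 and 1869 counts and with 32, 16 and 42 counts. Myoglobin (MB) had no count, desmin (DES) had 0, 7 and 0, and MYOD1, the factor of skeletal muscle, had 0, 4 and 0. Further heart genes with the pattern of MYH7 were named after their values were seen. MYBPC3 had 0, 0 and 217 counts, phospholamban (PLN) 4, 4 and 166, and MYL7 0, 0 and 159. The keratin KRT6A had 0, 0 and 92 counts. The part of these transcripts, and of the RNAs above, in other differences of replicate 3 was not tested. Without replicate 3, 12667 genes reached 1 FPKM against 12621 with it, and ERBB2 stood at 947 FPKM against 910. The median coefficient of variation of genes at 1 FPKM or more was 5.36% over all 3 libraries and 3.39% without replicate 3. It was 4.92% without replicate 1 and 4.81% without replicate 2. A coefficient from 2 libraries tends to be lower than one from 3, so these values are not directly comparable with 5.36%.

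STXBP6, which encodes amisyn, a SNARE-domain protein that binds syntaxin and restrains vesicle fusion, was at the edge of detection in the control cells. It had 4, 0 and 15 counts in replicates 1, 2 and 3, or 0.00675, 0 and 0.0277 FPKM (fragments per kilobase of gene length in a library of 1000000). This order of magnitude is that of SNAP25, the neuronal SNARE, at 0.00395 ± 0.00367 FPKM (SD, n = 3). Of 29 amisyn and SNARE partner genes, 24 reached 1 FPKM, against 64.3% of the 17065 genes with a protein-coding transcript. VAMP3, a vesicle SNARE of recycling endosomes, led them at 70.6 FPKM. Syntaxin 4, the partner of plasma membrane fusion (STX4), stood at 8.98 ± 0.463 FPKM and SNAP23, its non-neuronal companion, at 7.27 ± 0.0731 FPKM (SD, n = 3).

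The mRNA pool was broad. At a mean of at least 1 FPKM stood 12621 genes, 34.3% of all genes, and 10968 of them have a protein-coding transcript. At least 10 FPKM was reached by 4187 genes, at least 100 FPKM by 223 and at least 1000 FPKM by 15. The most abundant gene took 1.02% to 1.07% of a library's counts. The 10 most abundant genes together took 6.57% ± 0.244, the top 100 took 18.2% ± 0.351 and the top 1000 took 47.0% ± 0.223 (SD, n = 3). By share of the FPKM total, which weights short genes more, the top 10, 100 and 1000 genes held 16.9%, 33.3% and 58.8%.

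**Figure D1:**
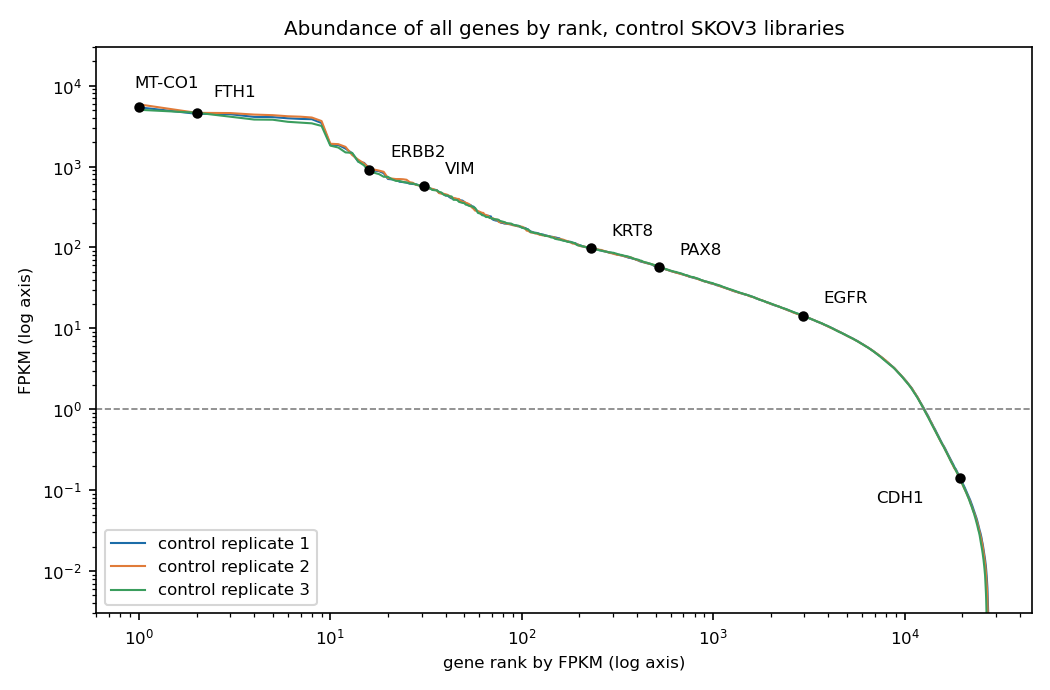
FPKM (log axis) of each gene against its rank (log axis), 1 line for each control library, with 8 genes marked at their mean FPKM and mean rank; the dashed line is 1 FPKM. The lines of the 3 libraries run together, MT-CO1 at 5426 FPKM and FTH1 at 4564 FPKM form the left end, and ERBB2 sits at rank 16 with 910 FPKM.

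Which gene led depended on the scale. MT-CO1, the mitochondrially encoded catalytic subunit of cytochrome c oxidase (GRCh38, mitochondrial genome, 5904 to 7445), had 5390, 5862 and 5026.5 FPKM in replicates 1, 2 and 3 (mean 5426 ± 419, SD, n = 3). FTH1, the heavy chain of the iron store ferritin (chromosome 11, 61959718 to 61967634, minus strand), had 4485, 4579 and 4627 FPKM (4564 ± 72.4). The lowest value of MT-CO1 lay above the highest of FTH1. ERBB2 (chromosome 17, 39687914 to 39730426, plus strand) had 942, 953 and 836 FPKM (910 ± 64.6) and ranked 16. By counts without a length correction ERBB2 came first at 10284 ± 702 CPM, FTH1 second at 10015 ± 172 CPM and MT-CO1 came next at 9161 ± 678 CPM (SD, n = 3). Those ranges overlapped: in replicate 3 FTH1 had 587301 counts and ERBB2 546283.

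The length used for the authors' FPKM bears on that order. Counts and FPKM together implied a length that was a median 1.1 times the union of a gene's annotated exons in GENCODE 29 (quartiles 1.09 to 1.11, 12501 genes) and 1.44 times its longest transcript. For ERBB2 the union of exons holds 10321 bases and the longest transcript 4930, so its FPKM divides by more than the length of any single annotated transcript. Divided by the longest transcript instead, FTH1 led at 8149 CPM per kilobase, MT-CO1 followed at 5941 and ERBB2 rose to rank 11 at 2086. FPKM levels of genes with many annotated isoforms are lower than their levels per transcript length, a limit that holds for every comparison between genes below.

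Mitochondrial genes held 12 of the first 14 places by FPKM. The mitochondrial genome encodes 13 subunits of the respiratory chain, which are transcribed as long precursors and cut apart at the intervening tRNAs. All 13 mRNAs exceeded 400 FPKM, with a median of 3424 FPKM. The cytochrome c oxidase subunits MT-CO1, MT-CO3 and MT-CO2 stood at 5426, 4092 ± 299 and 3424 ± 238 FPKM, and MT-ND6, the mRNA read from the other strand, at 811 ± 59.2 FPKM (SD, n = 3). MT-CO1 and MT-ND6 were lowest in replicate 3, and mitochondrial genes took 4.33%, 4.58% and 3.97% of the counts in replicates 1, 2 and 3. MT-ATP6 and MT-CO3 share 1 base, and neighbouring mRNAs share a longer stretch in 2 places. The longer of those 2 is printed because reads inside it belong to both genes. MT-ATP8 and MT-ATP6, subunits of ATP synthase, share 46 bases, and MT-ND4L and MT-ND4, subunits of complex I, share 7 bases (GENCODE 29 transcripts).
MT-ATP8 and MT-ATP6 shared stretch: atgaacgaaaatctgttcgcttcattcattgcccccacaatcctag
Within each pair the FPKM levels lay close, with a ratio of 1.08 for MT-ATP8 over MT-ATP6 and of 0.996 for MT-ND4L over MT-ND4. The 22 mitochondrial tRNA genes are 59 to 75 bases long, shorter than a library insert, and their 21.8 to 697 FPKM rest on 0.0453% of the counts, so these levels are uncertain. MTATP6P1, a nuclear copy of MT-ATP6 listed at 635 ± 56.4 FPKM (SD, n = 3), is nearly identical to the mitochondrial gene, and reads of the pair cannot be told apart with certainty.

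Iron storage transcripts were far above iron uptake transcripts. FTL, the light chain of ferritin, had 701, 720 and 747 FPKM, and the ratio of FTH1 to FTL was 6.32 ± 0.107 (SD, n = 3), with a range of 6.19 to 6.39. TFRC, the transferrin receptor, stood at 12.7 ± 0.738 FPKM, so FTH1 exceeded it 361-fold (SD 15.8, n = 3). The iron exporter ferroportin (SLC40A1) was at 0.792 ± 0.122 FPKM, and hepcidin (HAMP), the hormone that removes ferroportin, had no count. NCOA4, the receptor that takes ferritin to the lysosome, had 66.7 FPKM. In all, 15 of 19 iron genes reached 1 FPKM, against 64.3% of genes with a protein-coding transcript. Both ferritin leaders carry an iron-responsive element, a hairpin that iron regulatory proteins bind to block translation when iron is scarce. The 30 bases around its loop are printed because they show how alike the pair is, with the loop in capitals (GENCODE 29 transcripts, read in the direction of transcription).
FTH1 leader: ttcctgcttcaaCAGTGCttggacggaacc
FTL leader: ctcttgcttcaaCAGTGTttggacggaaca
The first 5 loop letters, CAGTG, also occur in the annotated leaders of 36.3% of 19403 genes, so the letters alone mark no such element. The iron regulatory proteins themselves, IREB2 and ACO1, stood at 11.7 and 8.27 FPKM. These levels are of RNA, and the element acts on translation, which was not measured.

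All 79 cytosolic ribosomal protein genes reached 1 FPKM, and 77 of them reached 10 FPKM. Their median was 64.4 FPKM against 2.95 FPKM over all genes with a protein-coding transcript. RPS2 of the small subunit led at 366 ± 19.3 FPKM (SD, n = 3), followed by RPS12 at 309 FPKM. RPS29 was lowest at 2.19 FPKM. The subunits are needed in equal numbers in a ribosome, yet the levels spread over more than 100-fold. The union of annotated exons of RPS29 holds 9845 bases and its longest annotated transcript 7062. Per kilobase of the longest transcript, RPS29 stayed lowest at 3.35 CPM and RPS2 highest at 618. Many ribosomal protein genes also have near-identical processed pseudogenes, and no source used here states how reads were divided among them. Together they took 2.08%, 2.11% and 2.17% of the counts in replicates 1, 2 and 3. The median of the large subunit genes (46 genes) was 64.9 FPKM and that of the small subunit genes (33 genes) 64.4 FPKM. Per kilobase of the longest transcript the medians were 127 and 109 CPM.

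Ribosomal protein and translation factor mRNAs classically begin with a C followed by a run of pyrimidines, the terminal oligopyrimidine tract through which mTOR signalling sets their translation. The tract was looked for as a C at the annotated start followed by 4 bases that are each C or T, on the gene's own strand. Promoters came from RefSeq (GRCh38.p14, 250 bases before to 50 bases from the start), for genes with 1 listed start. Of the 53 ribosomal protein genes with such an entry, 41 (77.4%) began that way, as did 12 of 24 translation factor genes, against 5.00% of 9647 promoters of genes with a protein-coding transcript. Starts of the most abundant ones are shown, 15 bases on each side, with the run of pyrimidines from the start on in capitals.
EEF1A1, chr6:73521018-73521047, minus strand: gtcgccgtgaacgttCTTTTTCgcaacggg
EEF2, chr19:3985449-3985478, minus strand: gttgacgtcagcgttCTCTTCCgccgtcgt
TPT1, chr13:45341169-45341198, minus strand: agcggctgagtcggcCTTTTCCgcccgctc
RPS12, chr6:132814554-132814583, plus strand: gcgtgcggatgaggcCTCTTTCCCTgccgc
RPS3A, chr4:151099613-151099642, plus strand: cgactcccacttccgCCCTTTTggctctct
RPL41, chr12:56116618-56116647, plus strand: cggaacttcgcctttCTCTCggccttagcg
RPL7A, chr9:133348203-133348232, plus strand: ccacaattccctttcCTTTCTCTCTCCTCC
RPLP0, chr12:120201097-120201126, minus strand: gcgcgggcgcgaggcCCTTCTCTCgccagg
RPS4X, chrX:72277234-72277263, minus strand: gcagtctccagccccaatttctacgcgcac
RPL13A, chr19:49487593-49487622, plus strand: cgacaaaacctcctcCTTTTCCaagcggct
RPL4, chr15:66504841-66504870, minus strand: tacagcgggagtggtaagcacttccttttc
RPS4X and RPL4 are abundant genes (170 and 147 FPKM) whose listed starts do not match. EEF1A1, which brings aminoacyl-tRNA to the ribosome, stood at 574 ± 9.36 FPKM, EEF2, which moves the ribosome along, at 362 FPKM, and TPT1, which encodes the tumour protein TCTP, at 121 FPKM. All 40 translation factor genes reached 1 FPKM, with a median of 42.0 FPKM. EEF1A2, the form of muscle and neurons and a reported ovarian cancer oncogene, was the lowest of them at 5.81 FPKM.

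Actin, tubulin and glycolytic genes were among the other leading genes. TMSB10, a thymosin that holds actin monomers, had 1460, 1387 and 1475 FPKM (1441 ± 46.7, SD, n = 3), and cytoplasmic gamma actin (ACTG1) had 1110, 1093 and 1149 FPKM (1117 ± 28.7). By FPKM all values of TMSB10 lay above all values of ACTG1. Per kilobase of the longest transcript the order was reversed, with ACTG1 at 2198 CPM and TMSB10 at 1466 CPM. Beta actin (ACTB) stood at 544 FPKM, beta tubulin (TUBB) at 468 FPKM, and smooth muscle actins at 0.429 FPKM for ACTA2 and no count for ACTG2. Among glycolytic genes 21 of 27 reached 1 FPKM, against 64.3% of genes with a protein-coding transcript. GAPDH had 875, 915 and 846 FPKM, LDHA 632, 629 and 616 FPKM, and ENO1 and PKM had means of 569 and 510 FPKM. LDHA, whose enzyme makes lactate, exceeded LDHB 6.61-fold (SD 0.310, n = 3). The calcium-binding S100A6 and S100A4 stood at 612 ± 32.5 and 587 ± 31.0 FPKM, while S100A9 and S100P, which mark neutrophils and many gut tumours, had no count. HSP90AB1, the constitutive cytosolic HSP90, led the chaperones at 425 FPKM, and stress-inducible HSPA6 was at 0.0786 FPKM. ID1, which blocks basic helix-loop-helix factors and is a target of BMP signalling, was the most abundant transcription regulator in the authors' annotation at 367 ± 21.3 FPKM, ahead of HMGA1 at 348 FPKM, YBX1 at 200 FPKM and HIF1A at 184 FPKM.

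The share of promoters with a TATA box differed between level classes in a way that was not monotonic. A TATA box was searched as TATAAA or TATATA on the gene's strand, 40 to 16 bases before the listed start. It was found in 10.5% of the 1884 genes under 0.1 FPKM, 6.14% of those from 0.1 to 1 FPKM (1400 genes), 1.58% from 1 to 10 FPKM (3981 genes), 2.59% from 10 to 100 FPKM (2278 genes) and 18.3% of the 104 genes at 100 FPKM or more. The Wilson 95% interval of the last value ran from 12% to 26.8%, and 4.41% of all 9647 promoters held the box. The genes at both ends of the range therefore carried the box more often than those in the middle. By classes of TPM (FPKM rescaled to a fixed total), which admit genes of lower FPKM to each class, the share in the highest class was 5.49%. The boxes of the 8 most abundant of the 19 genes are shown in capitals within a window from 45 to 16 bases before the start, since this share differed between classes (RefSeq, GRCh38.p14).
TMSB10, chr2:84905611-84905640, plus strand: gcggggcgcggcgTATATAaggctaggggc
S100A4, chr1:153545822-153545851, minus strand: gggcctggctggggTATAAAtaggtcagac
EEF1A1, chr6:73521048-73521077, minus strand: ggtgggggagaaccgTATATAagtgcagta
ID1, chr20:31605244-31605273, plus strand: ggccgtggcgtgttTATAAAagacaagctg
EEF2, chr19:3985479-3985508, minus strand: caaccggcgtccgccTATAAAaagctgagt
CALR, chr19:12938564-12938593, plus strand: tgagaggcgggtgggTATAAAagtgcaagg
TUBB4B, chr9:137241242-137241271, plus strand: aggcgggcagggagggTATATAagcgttgg
RPLP0, chr12:120201127-120201156, minus strand: tggctactttgttcgcatTATAAAaggcac
In these genes the box began 27 to 32 bases before the listed start. The median ratio of observed to expected CpG was 0.382 under 0.1 FPKM, 0.688 from 0.1 to 1 FPKM and between 0.855 and 0.897 in the 3 classes above 1 FPKM. The pyrimidine start rose in share from 3.34% in the lowest class to 14.4% (Wilson 95% interval 8.94% to 22.4%) in the highest, a class in which 15 of 104 genes held it. Ribosomal protein and translation genes shown above, RPS12, RPS3A, EEF1A1 and EEF2 among them, are part of those 15. The rise is therefore not separate from their abundance. Genes with several listed starts were left out, and a match shows letters, not use.

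**Figure D2:**
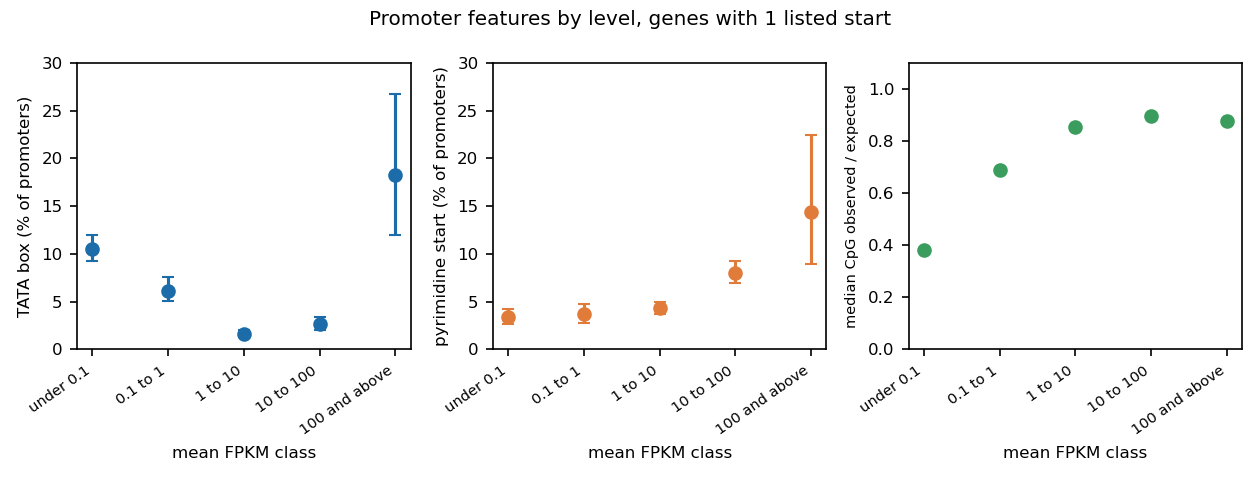
Share of RefSeq promoters with a TATA box (left), with a pyrimidine start (middle) and median CpG observed over expected (right) against mean FPKM class; bars are Wilson 95% intervals of the share. The TATA share is 10.5% in the lowest class, 1.58% from 1 to 10 FPKM and 18.3% in the highest class, while the CpG ratio rises from 0.382 and levels off above 1 FPKM.

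The control cells combined simple-epithelial keratins with a mesenchymal set, while E-cadherin stood at 0.142 FPKM. KRT8, KRT18, KRT19 and KRT7, the keratins of simple epithelium, stood at 97.3 ± 2.65, 57.1 ± 1.08, 31.9 ± 0.506 and 23.5 ± 0.768 FPKM (SD, n = 3), and the ranges of neighbours in that order did not overlap. Of the other listed keratins, KRT80, KRT14, KRT5, KRT17 and KRT15 reached 1 FPKM, at 18.1, 9.39, 4.64, 2.07 and 1.43 FPKM. Vimentin (VIM), the intermediate filament of mesenchymal cells, had 575, 593 and 547 FPKM and exceeded KRT8 5.88-fold (SD 0.354, n = 3). Desmosomal and surface genes of epithelium were present: the desmosome linker DSP stood at 29.6 ± 0.520 FPKM and the surface protein CD24 at 141 ± 8.31 FPKM. E-cadherin (CDH1) had 66, 78 and 42 counts, or 0.148, 0.172 and 0.105 FPKM. EPCAM, an epithelial adhesion molecule, stood at 2.34 ± 0.199 FPKM. The epithelial splicing regulators ESRP1 and ESRP2 were at 0.0119 and 0.0992 FPKM, and the epithelial transcription factors GRHL2 and OVOL1 had no count in any library, which allows up to 0.00237 and 0.00374 FPKM. Of 40 epithelial junction and identity genes, 25 (62.5%) reached 1 FPKM and 11 stayed under 0.1 FPKM, and over all genes with a protein-coding transcript these shares were 64.3% and 20.6%. The desmosomal and catenin genes JUP and CTNND1 stood at 14.3 and 14.6 FPKM.

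Repressors and products of the mesenchymal state were expressed side by side with those keratins. Of 30 mesenchymal genes, 25 reached 1 FPKM and 2 stayed under 0.1 FPKM, against 64.3% of genes with a protein-coding transcript at 1 FPKM. SNAI2, which encodes the E-cadherin repressor SLUG, had 21.3, 20.5 and 20.3 FPKM, and ZEB1, another repressor, had 8.96, 8.99 and 8.64 FPKM. Its paralog ZEB2 stood at 0.427 ± 0.0278 FPKM, 20.8-fold lower (SD 1.14, n = 3). Per kilobase of the longest transcript the gap was smaller, with ZEB1 at 13.4 CPM and ZEB2 at 1.28 CPM. Fibronectin (FN1), the gelatinase MMP2 and the matrix protein SPARC stood at 50.6, 60.4 and 65.1 FPKM. Of 21 cadherins, 6 reached 1 FPKM. CDH16, known from kidney, led at 19.2 ± 2.56 FPKM, ahead of CDH6, a cadherin of kidney and ovarian tumours, at 12.8 ± 0.675 FPKM and N-cadherin (CDH2) at 5.71 ± 0.581 FPKM (SD, n = 3). N-cadherin exceeded E-cadherin in each library, by 30.9-fold to 60.5-fold.

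**Figure D3:**
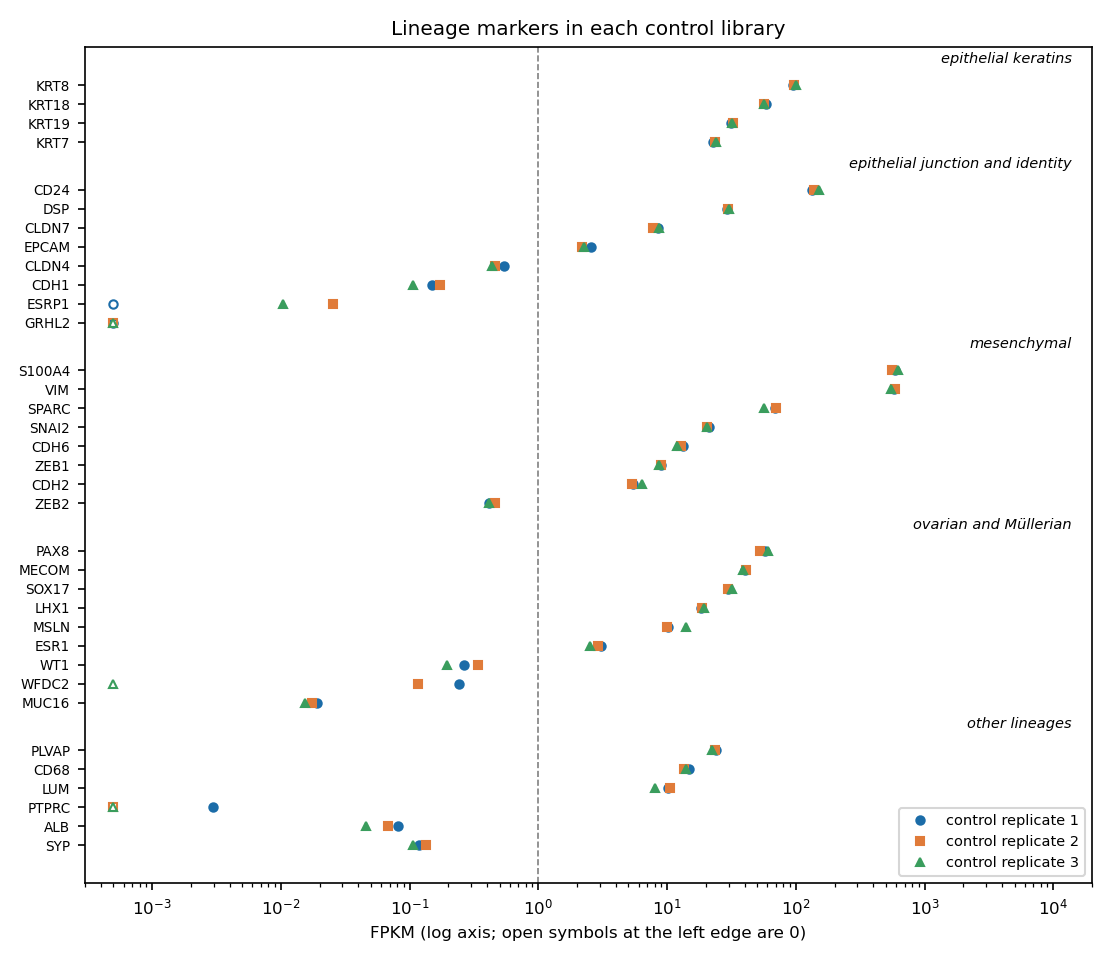
FPKM (log axis) of lineage markers in each of the 3 control libraries, grouped by the list they come from; open symbols at the left edge are 0 and the dashed line is 1 FPKM. VIM and S100A4 lie above all keratins, CDH1 lies near 0.1 FPKM, PAX8 and SOX17 lie above 25 FPKM while WT1, WFDC2 and MUC16 lie below 1 FPKM.

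Some Müllerian transcription factors were well expressed, and other factors and several clinical markers of ovarian carcinoma were near 0. PAX8 had 57.3, 52.9 and 61.1 FPKM and SOX17, its partner in ovarian tumours, 29.7, 29.6 and 31.7 FPKM. MECOM, the EVI1 locus that is often gained in ovarian cancer, stood at 39.96 ± 1.11 FPKM and LHX1 at 18.8 ± 0.600 FPKM (SD, n = 3). Mesothelin (MSLN) had 10.1, 10.01 and 14.1 FPKM, highest in replicate 3. WT1, a marker of serous carcinoma, was at 0.267 ± 0.0725 FPKM, HE4 (WFDC2) had 25, 12 and 0 counts, and CA125 (MUC16) was at 0.0173 ± 0.00182 FPKM. The clear cell marker NAPSA was at 0.00511 FPKM. Among factors of the Müllerian duct, PAX2, EMX2 and HOXA9 stood at 0.00544, 0.0622 and 0.0744 FPKM. Of 26 ovarian and Müllerian genes, 12 (46.2%) reached 1 FPKM, against 64.3% of all genes with a protein-coding transcript, and 11 stayed under 0.1 FPKM. PAX8 was the only one of 6 PAX genes above 1 FPKM.

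The HOX code was that of the B cluster. HOX genes lie in 4 clusters and give positional identity along the body axis. The 10 HOXB genes summed to 255 ± 6.83 FPKM (SD, n = 3), which is 88.1% of the FPKM of all 38 HOX genes in the table, and the A, C and D clusters summed to 7.93 ± 0.118, 1.33 ± 0.118 and 25.3 ± 0.577 FPKM. HOXB2 to HOXB9 all exceeded 15 FPKM, and these 8 were the only HOX genes to reach 10 FPKM. HOXB6 was highest with 74.0, 70.5 and 71.3 FPKM, followed by HOXB7 at 45.5 ± 1.04 FPKM. HOXB1, at one end of the cluster, had 0.00933 FPKM, and HOXB13, at the other, 3.63 FPKM. HOXA10 and HOXA11, which pattern the uterus, stood at 1.60 and 0.146 FPKM.

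Markers of leukocytes, hepatocytes and erythroid cells were mostly near 0, and single genes of other lists were expressed. In a bulk library fewer cells of a type and less RNA per cell cannot be told apart. Over all genes with a protein-coding transcript, 64.3% reached 1 FPKM and 20.6% stayed under 0.1 FPKM. Of 13 leukocyte genes, 12 stayed under 0.1 FPKM; PTPRC, the pan-leukocyte marker CD45, was at 0.000989 FPKM, and the exception was the lysosomal CD68 with 14.9, 13.6 and 14.1 FPKM. Of 15 hepatocyte genes, 14 stayed under 0.1 FPKM, as did 6 of 6 erythroid genes. Of 12 endothelial genes, 3 reached 1 FPKM: PLVAP, the diaphragm protein of fenestrated vessels, at 23.2 ± 0.891 FPKM, KDR at 1.74 FPKM and ERG at 1.29 FPKM, while CDH5 and VWF were at 0.0399 and 0.0226 FPKM. LUM, the proteoglycan lumican, led the fibroblast and pericyte genes at 9.59 ± 1.40 FPKM, with PDGFRB at 0.0929 FPKM. Anti-Müllerian hormone (AMH), made by granulosa and Sertoli cells, stood at 6.32 ± 0.235 FPKM (SD, n = 3), while its receptor AMHR2 had no count and FOXL2, the granulosa factor, was at 0.0216 FPKM. Of 13 neuronal and neuroendocrine genes, 5 reached 1 FPKM: the tubulin TUBB3 at 18.6 FPKM, MAP2 at 3.28 FPKM, ENO2 at 3.22 FPKM, chromogranin A (CHGA) at 2.77 FPKM and GAD1 at 1.16 FPKM. Of 11 mesothelial genes 4 did, among them MSLN at 11.4 FPKM, BNC1 at 3.67 FPKM and UPK3B at 1.98 FPKM. PRAME, a testis antigen of many tumours, had 17.1, 17.1 and 15.3 FPKM, and 14 of 17 cancer-testis genes stayed under 0.1 FPKM.

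ERBB2 and MIEN1 stood far above their chromosomal neighbours. MIEN1 (chromosome 17, 39728496 to 39730532, minus strand), a small prenylated protein linked to migration, had 890, 889 and 804 FPKM, and the ratio of ERBB2 to MIEN1 was 1.04 to 1.07 in the 3 libraries. The annotated spans of the pair overlap on opposite strands over 1931 bases, 94.8% of MIEN1. No source used here states if strand entered the counting, and reads from the end of ERBB2 cannot then be told apart from reads of MIEN1. PGAP3 overlaps ERBB2 over 8884 bases on the opposite strand and stood at 47.4 ± 5.69 FPKM. PPP1R1B, which encodes DARPP-32, and the cholesterol carrier STARD3 stood at 133 ± 9.99 and 105 ± 7.87 FPKM (SD, n = 3). GRB7, an adaptor that lies next to ERBB2 and is often amplified with it, was at 10.4, 10.7 and 8.69 FPKM, 91.8-fold below ERBB2. ERBB2, MIEN1, PPP1R1B, STARD3, PGAP3 and GRB7 were all lowest in replicate 3, and the ratio of ERBB2 to STARD3 stayed between 8.56 and 8.71 over the libraries. The 32 genes whose lower end lies within 700 kb of that of ERBB2 had a median of 9.76 FPKM, 81.3% of them at 1 FPKM or more, against a median of 3.80 FPKM and 65.9% for the other 972 genes of chromosome 17. Levels of RNA do not give the number of gene copies.

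**Figure D4:**
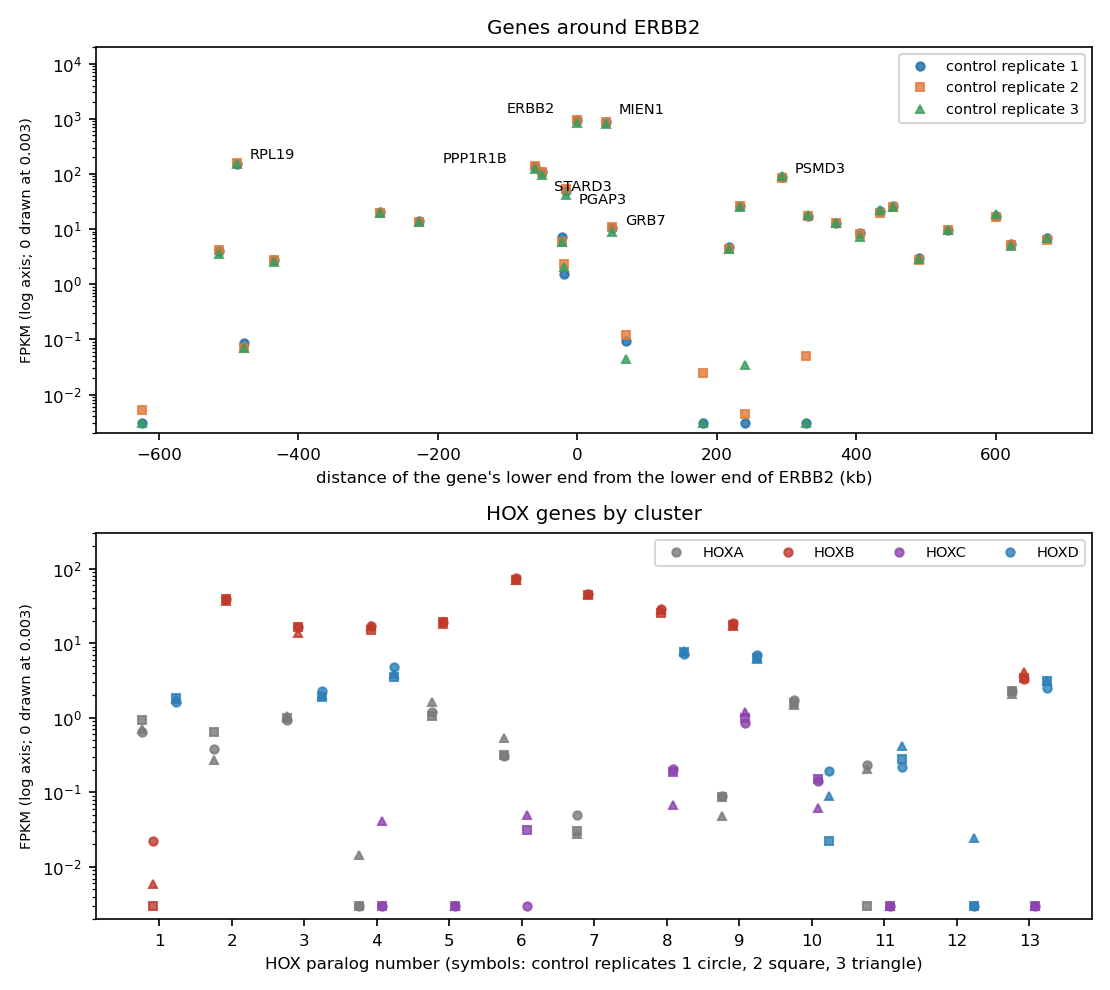
Top, FPKM (log axis) of the 32 genes around ERBB2 in each control library against the distance in kb between the lower end of the gene and that of ERBB2. Bottom, FPKM (log axis) of 38 HOX genes by paralog number and cluster; HOXB2 to HOXB9 lie between 13 and 75 FPKM in each library, and ERBB2 and MIEN1 are the only neighbours of the region to exceed 800 FPKM.

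Among its own family ERBB2 was alone at a high level. EGFR had 13, 13.6 and 16.5 FPKM (14.4 ± 1.88, SD, n = 3), and ERBB2 exceeded it 50.6-fold to 72.4-fold. ERBB3, the usual signalling partner of HER2, was at 0.118 ± 0.0140 FPKM and ERBB4 at 0.124 ± 0.0279 FPKM, with 77 to 135 counts a library for the pair. The order of ERBB3 and ERBB4 does not differ beyond their spread. Of 10 EGF family ligands in the table, 4 reached 1 FPKM, against 64.3% of genes with a protein-coding transcript. These 4 were TGFA, a ligand of EGFR, at 8.67 ± 0.167 FPKM, HBEGF at 2.00 FPKM, BTC at 1.82 FPKM and NRG2 at 1.17 FPKM. NRG1, a ligand of ERBB3 and ERBB4, stood at 0.830 FPKM.

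Of the 54 other receptor tyrosine kinases 21 reached 1 FPKM and 18 stayed under 0.1 FPKM. Over all genes with a protein-coding transcript these shares were 64.3% and 20.6%. EPHA2, an ephrin receptor, was highest with 72.9, 68.1 and 82.4 FPKM. PTK7, AXL and MET followed at 34.7 ± 1.81, 33.2 ± 9.24 and 30.5 ± 0.918 FPKM (SD, n = 3). PTK7 lay above MET in every library, and the range of AXL overlaps both. AXL, the receptor of GAS6, had 28.5, 27.2 and 43.8 FPKM, with replicate 3 above the others. FGFR1 led the fibroblast growth factor receptors at 7.85 FPKM and IGF1R stood at 4.32 FPKM. PDGFRA, PDGFRB and KIT were at 0.214, 0.0929 and 0.577 FPKM, and FLT1, a receptor of vascular endothelial growth factor, had no count.

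**Figure D5:**
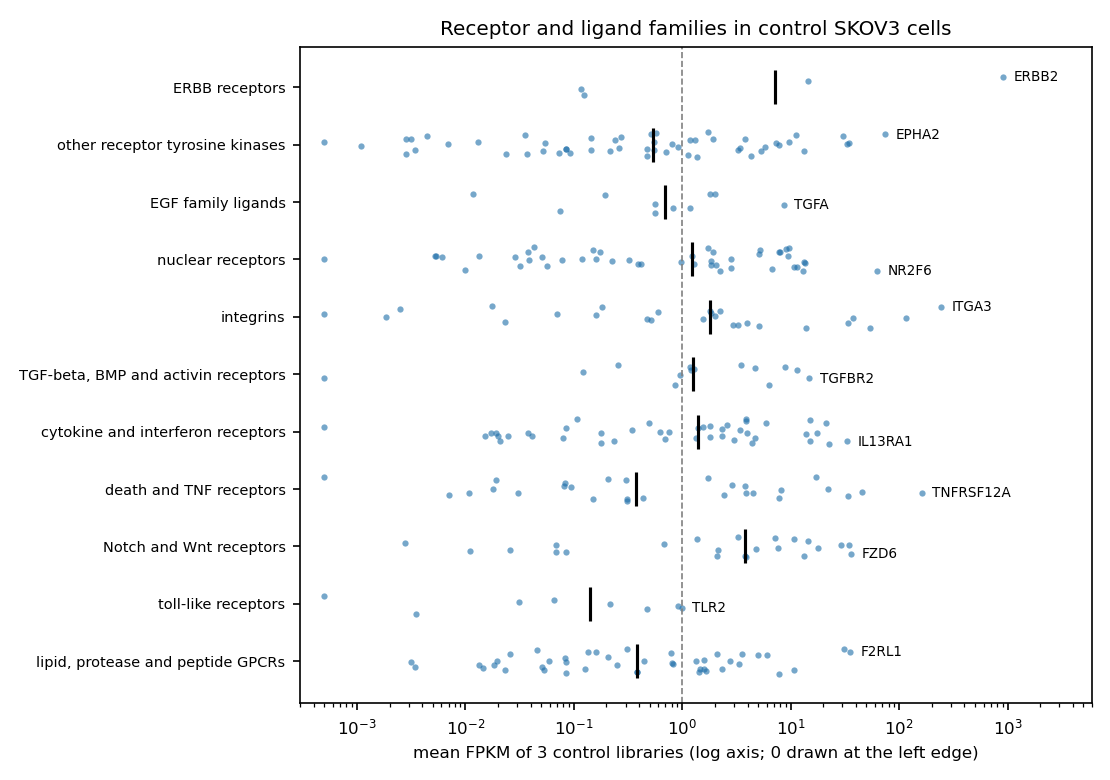
Mean FPKM over the 3 control libraries (log axis) of each gene of 11 receptor and ligand lists; 1 dot is 1 gene, black bars are list medians, the highest gene is named and the dashed line is 1 FPKM. ERBB2 at 910 FPKM, ITGA3 at 245 FPKM and TNFRSF12A at 161 FPKM lie farthest to the right, and no toll-like receptor reaches 1 FPKM.

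Several adhesion receptors were also abundant. ITGA3, the integrin subunit that pairs with ITGB1 to bind laminin, had 252, 246 and 237 FPKM, and ITGB1 had 113, 117 and 114 FPKM. ITGA6, the other laminin-binding subunit, stood at 54.3 ± 1.55 FPKM, 4.52-fold below ITGA3 (SD 0.108, n = 3), and its hemidesmosomal partner ITGB4 at 5.12 FPKM. ITGB5, ITGA5 and ITGAV, subunits that bind fibronectin and vitronectin, stood at 37.7, 34.0 and 13.8 FPKM. Of 26 integrin genes, 15 reached 1 FPKM, against 64.3% of genes with a protein-coding transcript. The leukocyte subunits ITGAL and ITGAM were at 0.00186 and 0.00249 FPKM.

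The orphan receptor NR2F6 led the nuclear receptors, and receptors of sex steroids were low. Of 47 nuclear receptor genes, 24 reached 1 FPKM, against 64.3% of genes with a protein-coding transcript. NR2F6 was highest with 62.8, 60.5 and 64.8 FPKM, followed by the retinoid partner RXRB at 13.5 FPKM and the oxysterol receptor NR1H2 at 13.4 FPKM. The estrogen receptor ESR1 had 3.08, 2.88 and 2.50 FPKM, and ESR2 and the progesterone receptor PGR were at 0.173 and 0.0513 FPKM. The glucocorticoid receptor NR3C1 stood at 6.67 ± 0.201 FPKM (SD, n = 3).

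Receptors of other families ranged from well expressed to near 0. Over all genes with a protein-coding transcript, 64.3% reached 1 FPKM, 23.4% reached 10 FPKM and 1.13% reached 100 FPKM. TNFRSF12A, the receptor of TWEAK, had 162, 154 and 167 FPKM and was the only one of 28 death and TNF receptors above 100 FPKM. TNFRSF1A and the TRAIL receptor TNFRSF10B stood at 45.7 and 33.6 FPKM, and FAS at 0.439 FPKM. IL13RA1 led the cytokine receptors at 33.1 FPKM, followed by IL6ST, the shared signalling chain of the IL-6 family, at 22.5 FPKM and OSMR at 21.3 FPKM. The protease-activated receptors F2RL1 and F2R stood at 35.2 ± 3.17 and 31.3 ± 0.983 FPKM, and only 3 of 44 genes of that list of G protein-coupled receptors reached 10 FPKM. Of 23 Notch and Wnt receptors, 16 reached 1 FPKM; FZD6 led at 36.0 FPKM, NOTCH2 stood at 14.6 FPKM and NOTCH3 at 0.0681 FPKM. TGFBR2 was the highest TGF-beta family receptor at 14.8 FPKM. None of 8 toll-like receptors reached 1 FPKM, with TLR2 nearest at 0.994 FPKM.

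Class I antigen presentation was expressed and class II was not. B2M, the light chain that class I molecules share, had 394, 404 and 355 FPKM. HLA-B stood at 62.6 ± 5.71 FPKM (SD, n = 3), and both genes were lowest in replicate 3. Reads of class I genes can be divided unevenly because their alleles differ from the reference. HLA-DRA had 4, 0 and 0 counts, HLA-DPB1 had none, and their activator CIITA was at 0.198 FPKM. Among secreted and matrix products 52 of 61 reached 1 FPKM, against 64.3% of genes with a protein-coding transcript. The cytokine MIF led at 235 FPKM, with TIMP2, an inhibitor of metalloproteinases, at 198 FPKM and the growth factor carrier FGFBP1 at 163 ± 20.2 FPKM. MMP1, the collagenase, had 117, 121 and 87.4 FPKM, and IL6 and CCL2 were at 0.617 and 0.180 FPKM.

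Most listed tumour suppressors reached 1 FPKM, while CDKN2A, CDKN2B and FHIT were near 0. CDKN2A, which encodes p16 and ARF, had 18, 5 and 7 counts, and its neighbours CDKN2B and MTAP stood at 0.0148 and 3.25 ± 0.202 FPKM (SD, n = 3). FHIT, at a fragile site, was at 0.0139 FPKM. Of 31 tumour suppressors 24 reached 1 FPKM, against 64.3% of genes with a protein-coding transcript. Among those 24 were RB1 at 19.3 FPKM, ARID1A at 6.47 FPKM and BRCA1 at 5.04 FPKM. RNA levels do not show whether a gene is mutated. Cyclin D1 (CCND1) stood at 93.0 ± 5.23 FPKM and cyclin E1 (CCNE1), amplified in a group of ovarian cancers, at 8.04 ± 0.130 FPKM. All 30 proliferation genes reached 1 FPKM, with PCNA at 133 FPKM and MKI67 at 29.9 FPKM, and the telomerase gene TERT was at 0.186 ± 0.0676 FPKM.

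Genes of drug handling were led by detoxification enzymes. GSTP1, a glutathione transferase, stood at 182 FPKM, NQO1, a quinone reductase, at 94.3 FPKM and CYP1B1, an estrogen-metabolising P450, at 77.7 FPKM. ABCC1, which encodes the efflux pump MRP1, stood at 22.2 FPKM, while the pumps ABCG2 and ABCB1 (P-glycoprotein) were at 0.212 and 0.102 ± 0.0305 FPKM. SLFN11, a sensitiser to DNA damage, stood at 21.4 FPKM. ALDH1A1, a marker used for ovarian cancer stem cells, was at 0.0865 FPKM and ALDH1A3 at 3.63 FPKM.

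Genes of low level were mostly scattered, and some lay in runs of neighbours. No count in any of the 3 libraries was seen for 4322 genes, 702 of them with a protein-coding transcript, and 3516 of the 17065 genes with such a transcript (20.6%) stayed under 0.1 FPKM. Along the chromosomes, with chromosome Y left out, 29 runs of 5 or more neighbouring protein-coding genes of the table lay under 0.1 FPKM, and they held 194 genes. No chance expectation was computed for such runs. The longest held 13 keratin and keratin-associated genes on chromosome 17 (40861303 to 41505613, from KRT12 to KRT13) with 38 counts over all 3 libraries. Another held 12 genes on chromosome 4 from UGT2B28 to SMR3B, and runs of 10 lay on chromosome 1 (mostly olfactory receptors in the first and the epidermal genes from TCHH to S100A7 in the other) and on chromosome X, from GABRA3 to MAGEA6. Of 180 olfactory receptor genes and pseudogenes, 3 reached 1 FPKM, led by OR2W3 at 6.70 FPKM, and all 15 keratin-associated protein loci in the table stayed under 0.1 FPKM. At the other end, the only run of 5 or more neighbours at 50 FPKM or above was the mitochondrial genome. Genes without a count in any of the series' libraries are not rows of the table, so family counts cover listed genes only.

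Noncoding RNA took a small share of these poly(A) libraries. Long noncoding genes were 9798 rows, of which 765 (7.81%) reached 1 FPKM, and they took 1.43% of the counts. LINC02582 was the highest named gene among them with 159, 138 and 212 FPKM, highest in replicate 3. NORAD, which binds Pumilio proteins, had 87.2, 87.3 and 85.7 FPKM and MALAT1, a nuclear speckle RNA, 83.9, 82.6 and 78.0 FPKM. NEAT1, the scaffold of paraspeckles, stood at 26.8 FPKM and HOTAIR had no count. Of 38 well-known long noncoding RNAs, 25 reached 1 FPKM. RN7SL2, counted among them, had 388, 110 and 7.27 FPKM in replicates 1, 2 and 3, so its mean of 169 FPKM describes none of the libraries.

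For most genes the replicates lay close together. The median coefficient of variation was 5.36% over the 12621 genes at 1 FPKM or more and 3.83% over the 4187 genes at 10 FPKM or more. Without replicate 1, 2 or 3 the first value was 4.92%, 4.81% or 3.39%, and values from fewer libraries tend to be lower. Above 25% stood 44 of those 4187 genes. The most variable were RN7SL2, RN7SL1, RN7SL4P, RN7SL5P and RNA5-8SN2, all lowest in replicate 3. Among protein-coding genes TOMM6, a subunit of the mitochondrial import pore, was highest in spread with 7.70, 38.0 and 22.8 FPKM. Of the 136 genes at 10 FPKM or more with a coefficient above 15%, replicate 3 was the library farthest from the other two in 94 (69.1%). CCN2, a target of YAP and TGF-beta signalling, had 28.0, 29.8 and 45.6 FPKM and RRAD, a small GTPase, had 45.0, 43.6 and 71.2 FPKM, both highest in replicate 3. G0S2, an inhibitor of lipolysis, had 102, 96.8 and 59.7 FPKM and the superoxide dismutase SOD2 25.1, 26.4 and 16.2 FPKM, both lowest there. These genes are described as spread within a single group, and its source was not tested.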

How the data were processed

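RNA-seq of 3 control SKOV3 libraries (shNC replicates 1 to 3) was used. For each gene the authors deposited raw read counts, which are whole numbers. The FPKM columns of the same table, per the file headers, are the authors' normalized levels, corrected for sequencing depth and the length of the gene. Per the submitters' processing notes the build was GRCh38 and the tools included StringTie 2.1.6, HISAT2 2.2.1 and cutadapt 1.9; no source used here states their roles, the annotation release or whether strand was used.

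Genes were ranked by mean FPKM and are given as mean ± SD over 3 libraries. No test was made, since there is 1 group. CPM used the library totals. Levels were set against 46 gene lists and 25 gene families (1 FPKM as reached, under 0.1 FPKM as low). The members and lists were chosen with earlier results of these data known. A few list members are not reported here. The genes named are the leaders by FPKM, the highest, lowest and defining members of each list, the most variable genes at 10 FPKM or more, the leading noncoding genes and runs of at least 5 neighbours; unnamed gene IDs and readthrough loci are left out.

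Of the table's IDs 94.8% were found in GENCODE 29, and 99.9% of these overlapped it on the same strand. RefSeq promoters matched 11843 genes by symbol, after 13002 rows that share a symbol with another row were left out. Shares carry Wilson 95% intervals. TMM factors (edgeR 4.0.16) and size factors (DESeq2 1.42.0, R 4.3.3) were alternatives. Python 3.11.15, pandas 2.3.3, numpy 2.4.6, scipy 1.17.1 and matplotlib 3.10.9 did the rest. The spread and the motif search were checked on simulated data.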

Additional observations from a re-analysis of the deposited data

How the results depend on the processing

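The number of genes at 1 FPKM or more (12621) ran from 10559 at 2 FPKM to 17424 at 1 TPM, within 1.5 times of the count given. Genes with at most 3 counts over the 3 libraries were 7798, against 4322 with none. With mitochondrial genes left out the 10, 100 and 1000 most abundant genes took 5.56%, 15.6% and 44.9% of the counts, and by FPKM they took 16.9%, 33.3% and 58.8% of the total. By CPM ERBB2 ranked 1 and MT-CO1 3. Per kilobase of the longest GENCODE 29 transcript, a scale chosen after seeing the data, FTH1 ranked 1, MT-CO1 2 and ERBB2 11. The median coefficient of variation was 22.8% without a filter on level and, leaving out each replicate in turn (added after seeing the data), 3.39% to 4.92%; it was lowest without shNC replicate 3, and TMM or DESeq2 factors gave 5.31%. Under TPM classes the TATA share was 8.43%, 3.76%, 1.55% and 5.49% in the 4 classes from 0.1 upward, so its rise in the highest class was smaller than by FPKM, and the pyrimidine start was 4.91% from 10 to 100. TPM values exceed FPKM here, so each TPM class holds genes of lower FPKM. Of 46 lists, 10 counts moved by over 1.5 times at 1 TPM, 7 at 2 FPKM and 5 at 0.5 FPKM. No paired analysis was possible because only 1 group was described and no test was made. Depth limits the low values: a gene near 0.01 FPKM rests on a few counts.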

Other observations

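Among nuclear chromosomes the median level of genes with a protein-coding transcript was highest on chromosome 20 at 5.11 FPKM (448 genes), followed by chromosome 22 at 4.10 FPKM and chromosome 17 at 3.96 FPKM. It was lowest on chromosome X at 1.45 FPKM (667 genes) and chromosome 7 at 1.67 FPKM (808 genes), against 2.95 FPKM over all of them. These are descriptions with no test, and chromosomes differ in the genes they carry.

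Of 1518 transcription factors in the authors' annotation, 1020 (67.2%) reached 1 FPKM, against 64.3% of genes with a protein-coding transcript. The share was 74.4% of 634 C2H2 zinc finger genes, 54.0% of 87 basic helix-loop-helix genes, 46.5% of 43 forkhead genes and 37.8% of 148 homeobox genes. Zinc finger genes were numerous and low: of 527 ZNF genes 408 reached 1 FPKM, 25 reached 10 FPKM and none reached 100 FPKM.

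Nuclear subunits of respiratory complexes stood far below the mitochondrially encoded ones. The nuclear subunits of complex I had a median of 9.43 FPKM (38 genes) and those of cytochrome c oxidase 24.96 FPKM (14 genes), where the mitochondrial mRNAs had a median of 3424 FPKM. ATP5F1B, a catalytic subunit of ATP synthase, was the highest of the nuclear genes compared at 250 FPKM. All 75 mitochondrial ribosomal protein genes reached 1 FPKM, with a median of 12.9 FPKM, and proteasome subunits had a median of 31.8 FPKM (38 genes).

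MT2A held nearly all of the metallothionein RNA, at 122 FPKM, with MT1X at 2.66 FPKM, MT1E at 1.52 FPKM and the other 5 genes in the table under 0.1 FPKM. Of 54 clustered protocadherins, 31 reached 1 FPKM, against 64.3% of genes with a protein-coding transcript. They were led by PCDHB8 at 13.5 FPKM and PCDHB2 at 12.9 FPKM.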
